A study of Mus musculus with 6 samples.

Results

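The genes described here are those of the motile cilium and the axoneme, the microtubule core of cilia and sperm flagella. They were taken from a liver RNA-seq table by its Gene Ontology column. A row was included where that column held cilium movement, axoneme assembly, motile cilium assembly or axoneme, and Foxj1, Armc3 and Katnal2 were added by name. This gave 138 of 28601 rows. Of these, 136 carried at least 1 of the 4 terms, Foxj1 among them, and Armc3 and Katnal2 entered by name alone. The axoneme term held 96 rows, cilium movement 37, axoneme assembly 23 and motile cilium assembly 20, with some rows under several terms. In 130 of the 138, at least 1 library had 10 or more counts, and in 8 every library stayed below 10. Foxj1, Armc3 and Katnal2 were selected on their low values in the Cys52Ser livers, so they are described without a test. The terms were chosen around those values, in the same comparison, so the counts over all these genes are descriptions too.

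The livers came from male mice on CDAHFD, a choline-deficient, amino acid-defined high-fat diet that causes steatohepatitis and fibrosis in mice. One group of 3 mice carried PRDX1 Cys52Ser, a serine in place of a cysteine of peroxiredoxin 1, a peroxide-reducing enzyme, and the other group of 3 mice was WT. The mice were 8 weeks old when feeding began. Sample titles and the series design give 8 weeks of feeding for both groups, whereas the treatment labels count 11, 12 and 13 weeks for the Cys52Ser libraries and 8, 9 and 10 weeks for the WT libraries. If those labels were taken literally, genotype and feeding time could not be told apart. No group on another diet is part of the comparison, and the sources used here do not give the strain, or whether the allele was homozygous. A change of a single residue cannot be seen in gene counts, so the genotype labels could not be checked from these values.

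Motile cilia beat because dynein arms, attached in rows to the microtubules of the axoneme, make neighbouring microtubules slide, while radial spokes, the central pair and the nexin links coordinate the movement. FOXJ1 is the transcription factor that switches on the genes of motile cilia in airway, brain ventricle and oviduct epithelium, and it works with the RFX factors, which bind the X-box motif in the promoters of many ciliary genes. In the liver, hepatocytes generally lack cilia, while cholangiocytes, the cells lining the bile ducts, carry a single primary cilium that senses bile flow and has no motile machinery. Both kinds of cilia are built and maintained by intraflagellar transport and separated from the cell by a transition zone, so the axoneme term also takes in genes of primary cilia. It further includes genes with wide roles, such as those of autophagy and of protein kinase A.

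Promoters are shown first because RFX motifs are a feature of many of these genes that did not enter their selection. RefSeq promoters (GRCm38.p6, 250 bases before to 50 after each annotated start) were matched to 114 of the 138 genes, which gave 135 promoters. The windows lie before the annotated start and do not reach into the gene as the deposited table places it. Capitals mark a match to the X-box consensus, a pair of inverted arms around a short spacer. Cfap44, Dnaic2, Hydin and Spag16 are shown with their match, for comparison with Dcdc2a and Armc3, which have none and whose expression is described in detail. All 6 lie on the plus strand, at chr16:44394689-44394795 for Cfap44, chr11:114727309-114727407 for Dnaic2, chr8:110266867-110266976 for Hydin, chr1:69826860-69826969 for Spag16, chr13:25055894-25056003 for Dcdc2a and chr2:19199008-19199117 for Armc3.
Cfap44: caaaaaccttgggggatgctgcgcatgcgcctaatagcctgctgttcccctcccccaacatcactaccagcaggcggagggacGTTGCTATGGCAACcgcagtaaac
Dnaic2: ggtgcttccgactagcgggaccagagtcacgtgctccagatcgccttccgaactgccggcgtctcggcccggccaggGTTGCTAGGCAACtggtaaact
Hydin: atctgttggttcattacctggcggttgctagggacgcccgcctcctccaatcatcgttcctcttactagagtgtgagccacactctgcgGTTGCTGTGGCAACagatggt
Spag16: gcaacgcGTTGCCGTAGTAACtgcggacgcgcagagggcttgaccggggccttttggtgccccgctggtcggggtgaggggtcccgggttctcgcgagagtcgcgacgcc
Dcdc2a: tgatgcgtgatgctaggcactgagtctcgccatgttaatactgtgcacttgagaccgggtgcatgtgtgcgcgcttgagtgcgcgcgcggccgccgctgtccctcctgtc
Armc3: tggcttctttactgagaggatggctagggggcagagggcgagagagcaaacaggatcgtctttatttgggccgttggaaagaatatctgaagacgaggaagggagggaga

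The match began 27 bases before the RefSeq start in Cfap44, 33 in Dnaic2, 21 in Hydin and 103 in Spag16. On both strands together, the X-box consensus was found in 14 of 135 cilium gene promoters (10.4%, exact 95% interval 5.79% to 16.8%), against 502 of 32851 promoters in the whole table (1.53%). Its arm GTTGCC, which overlaps it, was found in 49 of 135 promoters of cilium genes (36.3%), against 4111 of all promoters (12.5%). The forkhead core GTAAACA was found in 2 of the cilium gene promoters (1.48%), against 1199 of all promoters (3.65%). Several promoters can belong to the same gene, so they are not independent of each other. A match of letters does not show that a factor binds there, and the lack of one says nothing about regulation.

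**Figure D1:**
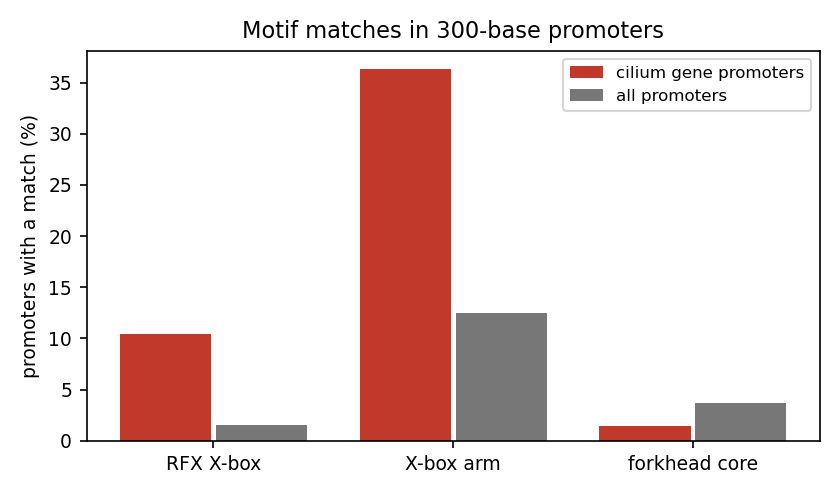
Share of RefSeq promoters (y axis, percent) that hold a match to each of 3 motifs (x axis), with the 135 promoters of cilium genes in red beside all 32851 promoters in grey. X-box matches stand at 10.4% of cilium gene promoters against 1.53% of all, and the forkhead core at 1.48% against 3.65%.

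Fold changes were then set beside the motifs. The 13 genes with an X-box in a promoter included 11 that could be tested, with a median log2 fold change (Cys52Ser over WT) of -0.58 and none past the threshold. The 100 without one, Septin2 counted once, included 86 tested genes other than the 3 named ones, with a median of -0.41 and 2 past the threshold. In 4 of the 11 tested X-box genes every Cys52Ser library lay below every WT library, beside 28 of the 86 without one and 15.2% of all tested genes. Ccdc103, among the 4, entered the test through its WT libraries only, which fixed its direction. Ccdc151, Dnaic1 and Ttll8, which also hold an X-box, had positive log2 fold changes of 1.63, 0.89 and 2.09. The genes whose X-box is printed above were expressed at low levels. Spag16, a central pair protein, had no count but in WT replicate 1 (0.0885 CPM). Hydin, a central pair protein, had 0, 0.0736 and 0 CPM in the Cys52Ser libraries and 0, 0.51 and 0.0347 CPM in the WT libraries. Dnaic2, an outer arm intermediate chain, had 0.199, 0 and 0.0574 CPM in Cys52Ser and 0.481, 0.181 and 0.052 CPM in WT. Cfap44, a protein tied to inner arm dyneins, had 0.474, 1.29 and 0.861 CPM in Cys52Ser and 1.49, 2.94 and 1.75 CPM in WT, groups that did not overlap, without passing the test (log2 fold change -1.24, edgeR adjusted p = 0.19).

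Library totals were 56473479 to 73900923 counts in Cys52Ser and 53318196 to 65465225 in WT. Levels of single genes are CPM, counts scaled to library size with TMM factors of 0.814 to 0.963 in Cys52Ser and 1.05 to 1.21 in WT. Levels are compared between genes only as FPKM, which is per length. Of the genes tested, 928 of 18648 (4.98%) passed an edgeR adjusted p of 0.05, with 459 lower (2.46%) and 469 higher (2.52%) in Cys52Ser, or 2724 lower and 293 higher when scaled by library totals alone. The tissue was liver by its markers: all 10 hepatocyte genes, albumin included, had a median of 2431 FPKM, and their summed level was 140283 to 174987 CPM in Cys52Ser and 64253 to 100712 CPM in WT. WT replicate 1 and Cys52Ser replicate 2 had higher summed levels of cholangiocyte markers than the other libraries of their groups.

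Foxj1 (ENSMUSG00000034227, GRCm38 chromosome 11, 116330704 to 116335399, minus strand) was counted 52, 34 and 48 times in the Cys52Ser libraries, against 1157, 409 and 294 times in the WT libraries. That made 0.796, 0.626 and 0.919 CPM in Cys52Ser, against 14.6, 6.73 and 5.09 CPM in WT. All 3 WT libraries lay above all 3 Cys52Ser libraries, and WT replicate 1 was far above the other WT libraries. Per length, the level was 0.229 ± 0.0289 FPKM in Cys52Ser and 3.45 ± 2.24 FPKM in WT (SD, n = 3 each). On the log2 scale the fitted change was -3.50 over all 6 libraries and -2.97 without WT replicate 1.

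Armc3 (ENSMUSG00000037683, chromosome 2, 19199302 to 19310241, plus strand), which encodes an armadillo repeat protein needed for sperm motility in mice, had no count in any Cys52Ser library and 50, 22 and 15 counts in the WT libraries. Against a floor of 3 counts over the Cys52Ser group, that was at least 25.2-fold lower. Katnal2 (ENSMUSG00000025420, chromosome 18), a katanin-like protein that is needed for sperm formation in mice, had no count in Cys52Ser and 23, 21 and 11 counts in WT, at least 15.95-fold lower by the same floor. Per length, Armc3 averaged 0.145 ± 0.0790 FPKM and Katnal2 0.0667 ± 0.0214 FPKM in WT (SD, n = 3 each), so both were low there too.

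**Figure D2:**
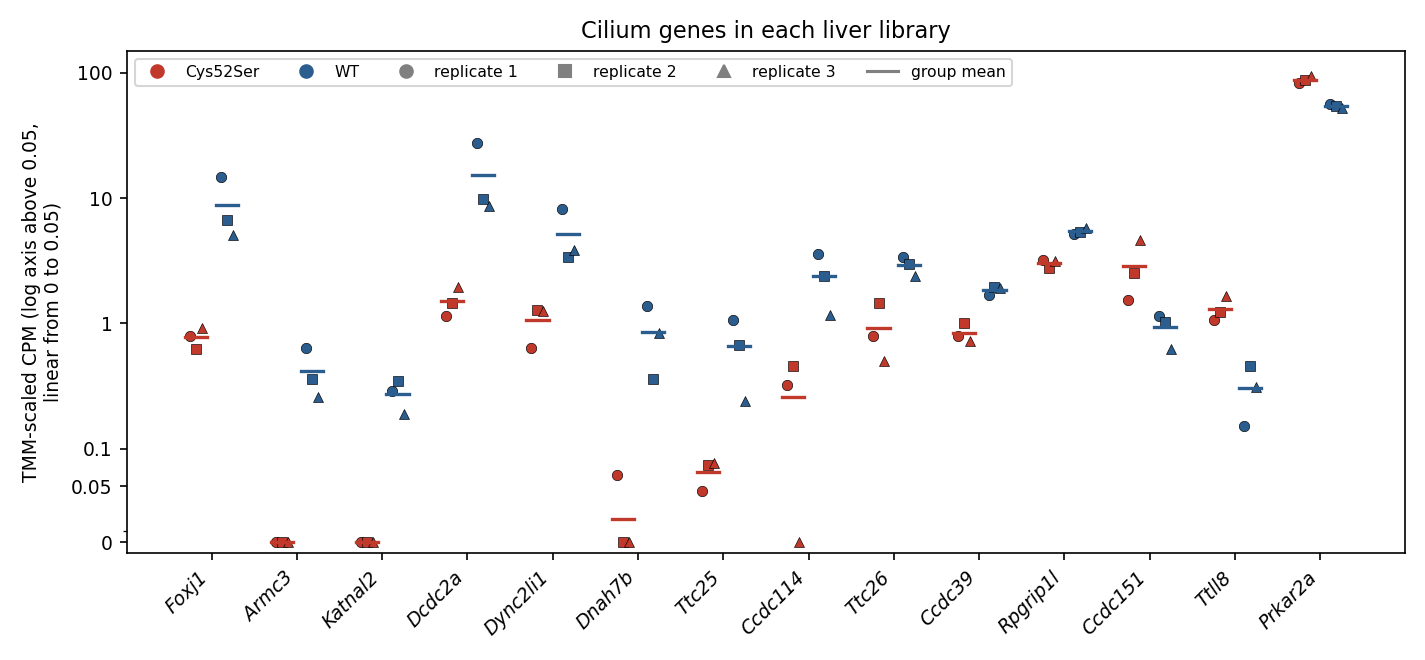
TMM-scaled CPM (y axis, logarithmic above 0.05 and linear below) of 14 cilium genes (x axis) in each Cys52Ser library (red) and WT library (blue), with bars at the group means. For Foxj1 the Cys52Ser libraries sit between 0.626 and 0.919 and the WT libraries between 5.09 and 14.6, and Ccdc151, Ttll8 and Prkar2a are the genes shown whose Cys52Ser libraries all lie above WT.

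Of the other 112 genes that passed the expression filter, 3 passed the test, 2.68% against 4.98% of all tested genes. Dcdc2a and Dync2li1 were lower and Prkar2a was higher, beside 2.46% and 2.52% of all tested genes. The remaining 109 did not pass. The number lower was 17 with library totals alone, 11 with DESeq2 and 9 to 10 with limma on FPKM, and it was 0 without Cys52Ser replicate 1 or 3 or WT replicate 2, and 1 without Cys52Ser replicate 2 or WT replicate 1. The number higher was 4 with DESeq2 and 0 with library totals, with limma, and without Cys52Ser replicate 1 or 3 or WT replicate 2. At an unadjusted p under 0.05 there were 28, with 23 lower and 5 higher. Of 18645 tested genes other than the 3 named ones, 4178 had such a p, with 2072 lower and 2106 higher. Of the 112 fold changes, 88 (78.6%) were negative, against 50.3% of all tested genes, with a median log2 fold change of -0.38 against -0.00. In 37 genes (33.0%) every Cys52Ser library lay below every WT library, against 15.2% of all tested genes, and in 5 (4.46%) every Cys52Ser library lay above, against 14.4%. The filter itself leans one way here, since 7 cilium genes, Armc3 and Katnal2 among them, passed it through their WT libraries only and 0 through their Cys52Ser libraries only. Among the 87 other cilium genes above the filter level in all 6 libraries, a choice that in turn removes genes low in Cys52Ser, the median log2 fold change was -0.23, against 0.01 for all genes of that kind. The Cys52Ser libraries all lay below WT in 25 of the 87 (28.7%), against 15.8%. With no filter at all, the mean CPM was lower in Cys52Ser for 110 of the 138 genes (79.7%), against 14171 of 28601 (49.5%).

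Dcdc2a (ENSMUSG00000035910, chromosome 13, 25056004 to 25210706, plus strand) encodes a doublecortin protein that binds the microtubules of the primary cilium, and loss of human DCDC2 causes a cholangiopathy of the newborn. It was measured at 1.15, 1.45 and 1.95 CPM in Cys52Ser, against 27.6, 9.82 and 8.6 CPM in WT. The groups did not overlap, and WT replicate 1 was again the highest library. The means were 1.52 ± 0.406 CPM in Cys52Ser and 15.3 ± 10.6 CPM in WT (SD, n = 3 each), 10.1-fold lower, with a log2 fold change of -3.34 ± 0.518 (SE) and an edgeR adjusted p of 0.0243. Without WT replicate 1 the log2 fold change was -2.66 (edgeR adjusted p = 0.0324). The call was lost without WT replicate 2 (adjusted p = 0.0605) and without Cys52Ser replicate 1, 2 or 3 (adjusted p = 0.0952, 0.0598 and 0.0934).

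Dync2li1 (ENSMUSG00000024253, chromosome 17, 84626496 to 84655588, plus strand) encodes the light intermediate chain of cytoplasmic dynein 2, the motor that carries intraflagellar transport back from the ciliary tip. Its levels were 0.643, 1.29 and 1.26 CPM in Cys52Ser, against 8.25, 3.40 and 3.85 CPM in WT. The libraries of the groups did not overlap, and the highest was WT replicate 1. The means of 1.06 ± 0.366 CPM in Cys52Ser and 5.17 ± 2.68 CPM in WT (SD, n = 3 each) gave a log2 fold change of -2.28 ± 0.461 (SE), 4.86-fold lower, with an edgeR adjusted p of 0.0413. This call was lost when any 1 of the 6 libraries was left out (edgeR adjusted p = 0.0567 to 0.12), with log2 fold changes of -2.56 to -1.82.

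Prkar2a (ENSMUSG00000032601, chromosome 9, 108689314 to 108750436, plus strand) encodes a regulatory subunit of protein kinase A, which is anchored at axonemes and at many other sites in the cell. It stood at 82.8, 87.1 and 94.7 CPM in Cys52Ser, against 56.2, 54.4 and 52.3 CPM in WT. Here each Cys52Ser library was above each WT library, with little spread inside either group. The means were 88.2 ± 6.03 CPM in Cys52Ser and 54.3 ± 1.98 CPM in WT (SD, n = 3 each), 1.62-fold higher, with a log2 fold change of 0.70 ± 0.0967 (SE) and an edgeR adjusted p of 0.0198. Scaled by library totals alone the log2 fold change was 0.34 (adjusted p = 0.0753), and on deposited FPKM it was 0.32 to 0.35 (limma adjusted p = 0.0879 to 0.0894). The call was also lost without Cys52Ser replicate 1 or 3, or WT replicate 2 (edgeR adjusted p = 0.0683, 0.0775 and 0.0634).

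**Figure D3:**
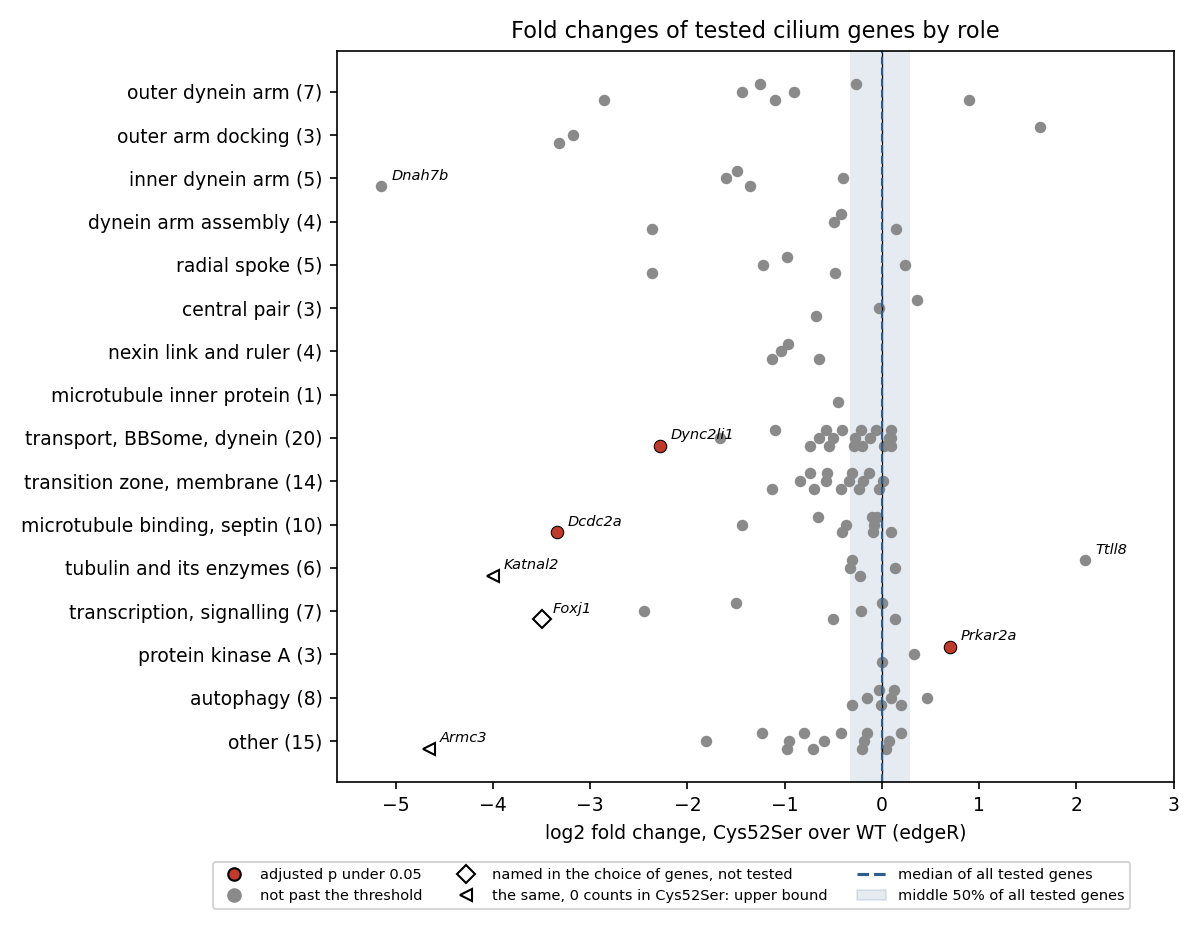
log2 fold change from edgeR (x axis, Cys52Ser over WT) of the 115 tested cilium genes, 1 point each, by role (y axis, number tested in brackets), with the 3 genes past an adjusted p of 0.05 in red, the genes named in the choice as open symbols, and the middle 50% of all tested genes shaded. Armc3 and Katnal2, at 0 in Cys52Ser, are drawn at their bounds, and the points of the inner arm and nexin rows all lie left of 0. In the inner arm row, Dnah7b and Dnah7c entered the test through WT libraries only, which fixed their direction.

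The machinery of motility proper comprised 48 genes: dynein arms and their docking and assembly factors, radial spokes, central pair, nexin links and microtubule inner proteins. Of these, 43 had 10 or more counts in some library and 32 were tested. None of the 32 passed the test (edgeR). At an unadjusted p under 0.05 there were 8, with 7 lower and 1 higher, beside 4178 of 18645 tested genes other than the 3 named ones. DESeq2 gave adjusted p-values for 24 of the 48 and called 4 lower and 1 higher, beside 1181 lower and 1294 higher over all genes. Limma on FPKM tested 16 and called 1 lower and 0 higher, beside 2567 lower and 336 higher over all genes. Of the 32, 27 had negative fold changes, with a median log2 fold change of -0.97. In 13 (40.6%) the Cys52Ser libraries all lay below WT, against 15.2% of all tested genes, and in 1 (3.12%) all above, against 14.4%. Ccdc103, Dnah7b, Dnah7c, Dnah9 and Ttc25 entered the test through their WT libraries only, so their direction was fixed by the filter. The motility genes were low, with a median over genes of 0.06 FPKM.

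Outer dynein arms give the axoneme most of its beat frequency. All 7 of their genes were tested and none passed, with a median log2 fold change of -1.10 and 6 negative. Of the 6, Dnah9 entered the test through its WT libraries only. Dnah9, a heavy chain of this arm, had 0.0459, 0.0736 and 0 CPM in Cys52Ser, against 0.253, 0.296 and 0.364 CPM in WT (log2 fold change -2.85, edgeR adjusted p = 0.131). Dnah5, the other heavy chain of most motile cilia, had 0.153, 0.276 and 0.0766 CPM in Cys52Ser and 0.645, 0.164 and 0.277 CPM in WT (log2 fold change -1.10, adjusted p = 0.467). The groups of Dnah9 did not overlap and those of Dnah5 did. Dnaic1, an intermediate chain, had the 1 positive value of the class (0.89, edgeR adjusted p = 0.656), with 6.04 CPM in Cys52Ser replicate 1 beside 0.847 and 1.09 CPM in the other Cys52Ser libraries and 0.291, 1.64 and 2.39 CPM in WT.

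Docking factors fix the outer arm to the microtubule, and 3 of their 4 genes were tested. Ttc25 had 0.0459, 0.0736 and 0.0766 CPM in Cys52Ser, against 1.07, 0.674 and 0.243 CPM in WT (log2 fold change -3.32 ± 0.748 SE, edgeR adjusted p = 0.0516). Ccdc114 had 0.321, 0.46 and 0 CPM in Cys52Ser, against 3.58, 2.38 and 1.18 CPM in WT (log2 fold change -3.18, adjusted p = 0.144). Ccdc151 was ordered the other way, with 1.53, 2.5 and 4.65 CPM in Cys52Ser, against 1.14, 1.04 and 0.624 CPM in WT (log2 fold change 1.63, edgeR adjusted p = 0.103). The 3 docking genes each separated the groups, 2 with Cys52Ser below WT and 1 above, without passing the test. Of all tested genes, 15.2% lay below and 14.4% above in this way. Ttc25 entered the test through its WT libraries only, which fixed its direction.

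Inner dynein arms shape the bend of the cilium. The 5 tested genes of 9 all had negative values, with a median of -1.49. Of the 5, Dnah7b and Dnah7c entered the test through their WT libraries only, which fixed their direction. Dnah7b, an inner arm heavy chain, had 0.0612, 0 and 0 CPM in Cys52Ser, against 1.37, 0.362 and 0.832 CPM in WT (log2 fold change -5.15, edgeR adjusted p = 0.0525). Its value rests on 4 counts in the Cys52Ser group and is uncertain, because Dnah7a and Dnah7c are close copies among which reads can be split. Wdr78, a dynein intermediate chain, had 0.275, 0.736 and 0.325 CPM in Cys52Ser, against 1.52, 1.04 and 1.2 CPM in WT, also without overlap (log2 fold change -1.49, edgeR adjusted p = 0.143).

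Dynein arms are folded in the cytoplasm by assembly factors, of which 4 of 6 were tested, with a median log2 fold change of -0.46. Ccdc103, which entered the test through its WT libraries only, had 0.122, 0.11 and 0 CPM in Cys52Ser and 0.67, 0.148 and 0.416 CPM in WT (log2 fold change -2.36, edgeR adjusted p = 0.247). Dnaaf5, the most expressed of them, had 10.6, 11.7 and 12.5 CPM in Cys52Ser and 10.5, 12 and 9.11 CPM in WT, overlapping groups with a log2 fold change of 0.14 that was negative under library totals and on FPKM.

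Radial spokes and the central pair pass signals to the dyneins. Of the radial spoke genes 5 of 6 were tested, with a median log2 fold change of -0.97. Rsph9, a spoke head protein, had 0.841, 0.387 and 0.708 CPM in Cys52Ser, against 2.25, 1.25 and 1.02 CPM in WT, which did not overlap (log2 fold change -1.22, edgeR adjusted p = 0.198). Dnajb13, a chaperone-like spoke protein, had 1.88, 1.66 and 1.01 CPM in Cys52Ser, against 2.14, 2.12 and 2.11 CPM in WT (log2 fold change -0.48, adjusted p = 0.468). The 3 tested central pair genes of 7 had a median of -0.03. Spef1, which binds and bundles microtubules, had 3.26, 3.5 and 3.9 CPM in Cys52Ser and 4.08, 3.78 and 2.98 CPM in WT, with groups that overlapped. Cfap54 had 1.02, 1.66 and 0.766 CPM in Cys52Ser and 1.33, 0.855 and 0.485 CPM in WT, which overlapped as well.

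Nexin links and the ruler proteins set the spacing along the axoneme, and their 4 tested genes of 6 all had negative values, with a median of -1.003. Ccdc39, a ruler protein, had 0.796, 1.01 and 0.727 CPM in Cys52Ser, against 1.69, 1.96 and 1.91 CPM in WT (log2 fold change -1.13 ± 0.341 SE, edgeR adjusted p = 0.103). The groups were separate and each was tight. Exons of Ttc14 overlap this gene on the opposite strand, so the reads of the pair cannot be told apart if counting ignored the strand. Gas8, a nexin link protein, had 4.27, 4.66 and 3.94 CPM in Cys52Ser and 8.03, 7.94 and 4.12 CPM in WT (log2 fold change -0.64, edgeR adjusted p = 0.236). Mns1, a microtubule inner protein, had 0.566, 2.06 and 1.47 CPM in Cys52Ser and 1.87, 2.33 and 1.4 CPM in WT, with overlap (log2 fold change -0.45, adjusted p = 0.665).

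Several low genes were at 0 throughout the Cys52Ser group. Besides Armc3 and Katnal2, 6 cilium genes with at least 10 counts over the WT libraries had none in any Cys52Ser library, and 1 showed the reverse. Cfap70, a central pair protein, had 41, 25 and 0 counts in WT and was at least 19.1-fold lower in Cys52Ser. Dnali1, an inner arm light intermediate chain, had 50, 0 and 4 counts in WT and was at least 15.66-fold lower. Gnat3, the taste transducin gustducin, had 8, 27 and 7 counts in WT and was at least 12.18-fold lower. Spef1l, Rp1 and Cfap73 had 27, 20 and 10 counts in all over the WT libraries, and bounds of 7.83, 5.80 and 2.90. In Rp1, a photoreceptor axoneme gene, all of these counts came from WT replicate 2. Gm44503 had 12 counts in Cys52Ser replicate 3 and none elsewhere, and it shares exons with other genes on its own strand. Apart from Armc3 and Katnal2, these genes were too low to enter the test, and the bounds cover counting error in the Cys52Ser group only.

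Genes that primary cilia also use were expressed at higher levels than the motility genes. The 20 genes of intraflagellar transport, the BBSome and cytoplasmic dynein 2 had a median of 1.54 FPKM. Of the 20, 1 (5.0%), Dync2li1, was called lower, beside 4.98% of all tested genes called in either direction. The median log2 fold change of the 20 was -0.28, with 15 negative. Ttc26, a transport train subunit, had 0.796, 1.45 and 0.498 CPM in Cys52Ser, against 3.38, 2.98 and 2.39 CPM in WT (log2 fold change -1.67 ± 0.449 SE, edgeR adjusted p = 0.0794). Ift57, another transport subunit, had 3.06, 3.76 and 1.97 CPM in Cys52Ser, against 8.75, 6.05 and 4.02 CPM in WT (log2 fold change -1.10, adjusted p = 0.127). Both separated the groups without passing the test. Dynll1, a light chain shared by many complexes, had 37.5, 49.5 and 37.9 CPM in Cys52Ser and 45.2, 66.1 and 54.8 CPM in WT, which overlapped.

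The 14 genes of the transition zone and ciliary membrane had a median log2 fold change of -0.38, with 13 negative and none past the threshold (edgeR). At an unadjusted p under 0.05 there were 4, all lower, and DESeq2 and limma on FPKM each called 2 lower. Rpgrip1l, a transition zone scaffold, had 3.21, 2.78 and 3.14 CPM in Cys52Ser, against 5.21, 5.39 and 5.75 CPM in WT (log2 fold change -0.84 ± 0.197 SE, edgeR adjusted p = 0.057). Cc2d2a, a transition zone protein, had 4.25, 5.14 and 5.45 CPM in Cys52Ser, against 9.51, 8.24 and 7.1 CPM in WT (log2 fold change -0.74, adjusted p = 0.072). Inpp5e, the phosphatase that sets ciliary phosphoinositides, had 10, 10.5 and 11.8 CPM in Cys52Ser, against 15.2, 13.5 and 14.7 CPM in WT (log2 fold change -0.42, adjusted p = 0.109). In each of these, the Cys52Ser libraries all lay below the WT libraries and WT replicate 1 did not stand far from its group.

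Microtubule-binding proteins and septins, 10 of 12 tested, had a median of -0.24 with Dcdc2a as the 1 call. Septin9, a filament protein of the ciliary base and the cytoskeleton, had 68.6, 70.2 and 70.4 CPM in Cys52Ser, against 151, 92.1 and 86.9 CPM in WT (log2 fold change -0.66, edgeR adjusted p = 0.124). Septin2 fills 2 rows at overlapping places, so how reads were divided between them is uncertain, and the larger row had a log2 fold change of -0.41 (edgeR adjusted p = 0.237). Among the tubulin genes and enzymes, 5 tested besides Katnal2, Ttll8, which glycylates tubulin, had 1.06, 1.23 and 1.65 CPM in Cys52Ser, against 0.152, 0.46 and 0.312 CPM in WT. Its log2 fold change was 2.09 ± 0.532 (SE) with an edgeR adjusted p of 0.07, and another annotated gene shares exons with it on the same strand. Ttll1, which glutamylates tubulin, had 3.73, 3.74 and 3.96 CPM in Cys52Ser and 5.01, 4.32 and 4 CPM in WT (log2 fold change -0.22, adjusted p = 0.584).

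Genes with wide roles led by level. Gabarap, which builds autophagosomes, led with a mean of 113.8 FPKM, ahead of the protease gene Ctsh with 55.2 FPKM and Prkar1a with 34.9 FPKM. Gabarap had 247, 215 and 246 CPM in Cys52Ser and 207, 230 and 274 CPM in WT, and Prkar1a, a protein kinase A regulator, had 169, 167 and 171 CPM in Cys52Ser and 176, 174 and 156 CPM in WT. The groups of both overlapped. The 8 autophagy genes were evenly split, 4 negative and 4 positive, with a median of 0.04. Atg16l1, which directs the lipidation of autophagy proteins, had 46.7, 44.1 and 60.2 CPM in Cys52Ser, against 34.6, 37.3 and 37.3 CPM in WT (log2 fold change 0.47, edgeR adjusted p = 0.0933). Prkaca, the catalytic subunit of protein kinase A, had 68.9, 69 and 74.7 CPM in Cys52Ser, against 60.9, 54.6 and 53.9 CPM in WT (log2 fold change 0.33, adjusted p = 0.0986). The groups of Atg16l1 and Prkaca did not overlap. The 3 protein kinase A genes, Prkar2a included, had a median log2 fold change of 0.33. For Prkaca, however, the log2 fold change was -0.03 with library totals alone and -0.02 on FPKM.

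By level, the medians over the tested cilium genes differed most from those of all genes in the lowest class, where the filter leaned to WT. Among the 36 tested cilium genes with a mean below 1 CPM, the median log2 fold change was -0.96, against -0.11 for all genes of that level, and 33 were negative. Of these 36, 5 entered the test through their WT libraries only and 0 through their Cys52Ser libraries only. The 13 above the filter level in all 6 libraries had a median of -0.27, against -0.06 for all such genes, so the size in this class depends on the filter. Among the 34 between 1 and 5 CPM the median was -0.41, against -0.13, and for the 33 above the filter level in all 6 libraries -0.37, against -0.15. Among the 42 at 5 CPM or more it was -0.11, against 0.04, with 28 negative, and for the 41 above the filter level in all 6 libraries -0.12, against 0.04. With genes above the filter level in all 6 libraries, the lowest class thus did not differ most. By term, the medians were -1.12 for the 24 tested genes of cilium movement, -0.68 for the 15 of axoneme assembly, -0.53 for the 16 of motile cilium assembly and -0.22 for the 64 with the axoneme term alone. Terms and levels overlap in these genes, since those of cilium movement are mostly the low ones.

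**Figure D4:**
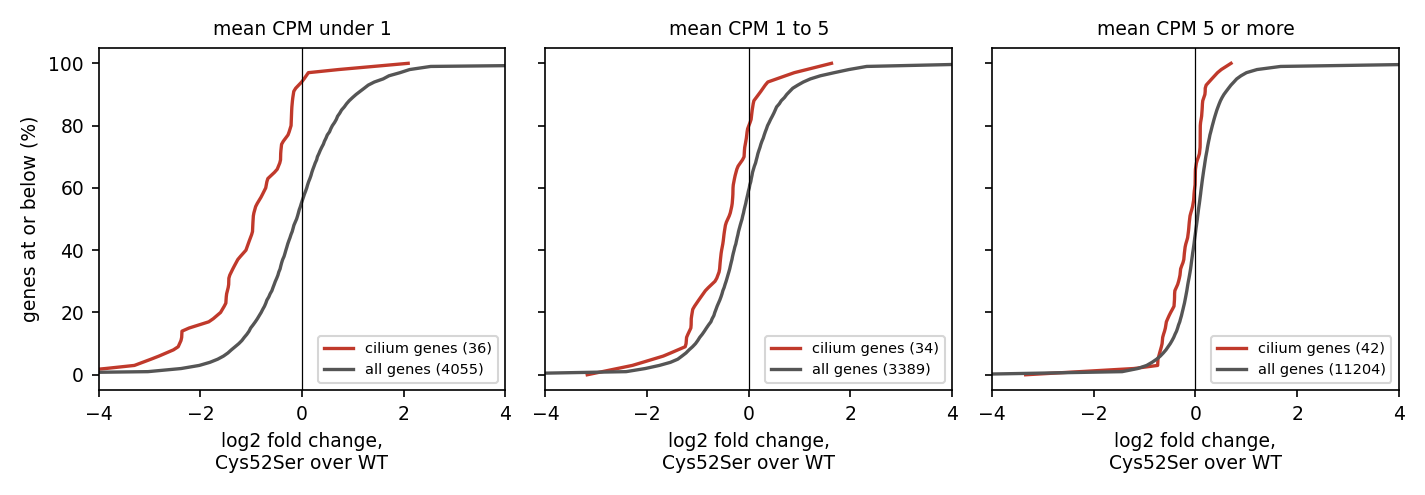
Percent of tested genes (y axis) at or below each log2 fold change (x axis, Cys52Ser over WT) for cilium genes (red) and all tested genes (grey), in panels of mean CPM under 1, 1 to 5 and 5 or more, with the x axis ending at 4 either side of 0. The red curve lies left of the grey one most widely in the lowest class, with medians of -0.96 against -0.11, and nearest to it in the highest, with -0.11 against 0.04. In the lowest class 5 of the 36 cilium genes passed the filter through WT libraries only. For genes above the filter level in all 6 libraries, not drawn, the medians were -0.27 against -0.06 in the lowest class and -0.37 against -0.15 in the middle one.

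Fewer motility genes were detected in Cys52Ser. Of the 48, those with 10 or more counts numbered 23, 25 and 21 in the Cys52Ser libraries and 41, 36 and 33 in the WT libraries. No whole-table share is given for 10 or more counts. Those with at least 1 count numbered 36, 37 and 29 in Cys52Ser and 43, 43 and 41 in WT. By either count, all WT libraries were above all Cys52Ser libraries. Library sizes after TMM scaling were 65391527, 54358886 and 52262164 counts in Cys52Ser and 79113415, 60846725 and 57731591 in WT, and their part in this order was not tested. Summed over the 48 genes, the level was 41.5, 43.7 and 42.1 CPM in Cys52Ser and 61.8, 54.6 and 45.1 CPM in WT. Across the whole table, the share of genes with at least 1 count was 81.4%, 81.8% and 75.2% in Cys52Ser and 83.4%, 80.8% and 80.2% in WT, and over the 138 cilium genes it was 84.1%, 85.5% and 78.3% in Cys52Ser and 93.5%, 95.7% and 89.1% in WT. In whole tissue, fewer cells of a type and less RNA per cell cannot be told apart.

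Markers of cholangiocytes moved with these genes. Of 20 such markers, all of them detected, 3 were called lower (edgeR) and none higher, at 15.0% against 4.98% of all genes, and 16 had negative fold changes with a median log2 value of -1.05. DESeq2 called 10 lower and 1 higher, and limma on FPKM 9 lower. In 10 (50.0%) the Cys52Ser libraries all lay below WT, against 15.2% of all tested genes. The called genes were Pkhd1, the fibrocystin of the primary cilium, Cldn7, a tight junction protein, and Ddit4l, a regulator of mTOR signalling. Pkhd1 had 5.77, 6.04 and 6.6 CPM in Cys52Ser, against 30, 19.9 and 15.8 CPM in WT (log2 fold change -1.84, edgeR adjusted p = 0.0183). The summed level of the 20 markers was 334, 661 and 320 CPM in Cys52Ser and 1663, 975 and 825 CPM in WT. WT replicate 1 was thus the highest library and Cys52Ser replicate 2 the highest of its group. Of this sum, Spp1 alone gave 141, 335 and 116 CPM in Cys52Ser and 1161, 618 and 558 CPM in WT. The distance between the groups in this sum thus leans on 1 gene. With Spp1 left out, the groups overlap, with Cys52Ser replicate 2 above WT replicate 3. The part of cholangiocytes in the values of the cilium genes was not tested.

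Within each group, the cilium genes shared in part the order of the libraries in the cholangiocyte markers. The choice of genes rested on low Cys52Ser beside WT values, which 1 high WT library can favour. The order within WT is therefore not independent of that choice. The 115 tested genes also include Foxj1 and the 7 genes that passed the filter through their WT libraries only. Among WT libraries, 67 of 115 tested cilium genes (58.3%) were highest in replicate 1, against 37.3% of all tested genes, as were 17 of 20 cholangiocyte markers (85.0%). The lowest WT library was replicate 3 for 61 of the 115, against 35.4% of all genes, and for 17 of the 20 markers. In Cys52Ser, 48 of 113 cilium genes (42.5%) were highest in replicate 2, against 31.7% of all genes, and so were 14 of the 20 markers (70.0%). The log2 ratio of WT replicate 1 to the mean of the other WT libraries had a median of 0.25 over the cilium genes, 0.41 over the 32 motility genes, 0.87 over the cholangiocyte markers and 0.01 over all tested genes. It was 1.29 for Foxj1, 1.57 for Dcdc2a and 1.16 for Dync2li1. These shares are descriptions, since genes of the same libraries are not independent. The median log2 fold change of the cilium genes was -0.31 without WT replicate 1 and -0.55 without Cys52Ser replicate 2.

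**Figure D5:**
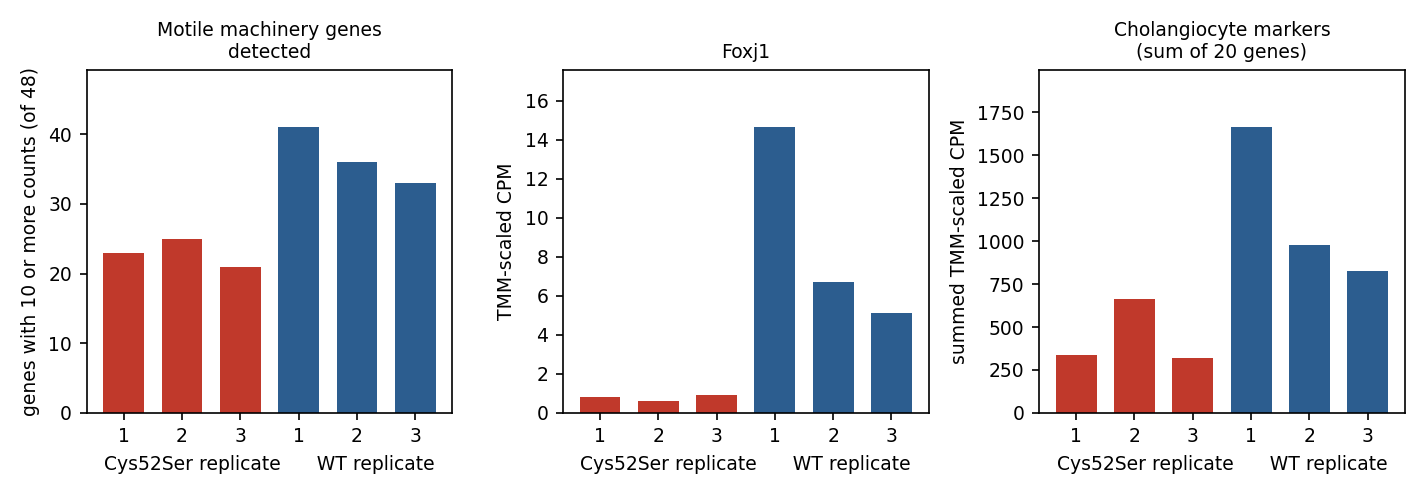
Bars give, for each Cys52Ser replicate (red) and WT replicate (blue), the number of the 48 motility genes with 10 or more counts (left), Foxj1 in TMM-scaled CPM (middle) and the summed TMM-scaled CPM of 20 cholangiocyte markers (right). Spp1 adds most to that sum, and with Spp1 left out the groups overlap. WT replicate 1 is the tallest bar in each panel, with 41 genes, 14.6 CPM and 1663 CPM, and Cys52Ser replicate 2 leads its group in the left and right panels but not for Foxj1.

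Other cell types that carry motile axonemes were looked for through their own markers. Of 26 genes of multiciliated epithelium in the table that are not among the 138, 18 had 10 or more counts in some library and 8 were tested, with none called by edgeR (2 higher at an unadjusted p under 0.05, and 1 higher with DESeq2), 4 negative and 4 positive. Their summed level was 10.4, 13.3 and 10.1 CPM in Cys52Ser and 9.32, 9.68 and 11.8 CPM in WT, with overlap. Fhad1, one of these genes, had 4.71, 4.99 and 5.19 CPM in Cys52Ser, against 1.85, 1.83 and 3.1 CPM in WT (log2 fold change 1.14, edgeR adjusted p = 0.0666). Ak7 had 82, 67 and 74 counts in Cys52Ser and 75, 188 and 182 in WT, Tppp3 had 51, 104 and 31 in Cys52Ser and 131, 96 and 93 in WT, and Vwa3b had 93, 110 and 58 in Cys52Ser and 42, 44 and 56 in WT. Others were near 0, such as Tmem212 with 0, 9 and 0 counts in Cys52Ser and 0, 16 and 3 in WT. Ccdc113, Morn5, Ak9, Ccdc170, Cdhr3 and Stoml3 had no count in Cys52Ser and at most 23 in any WT library, whereas Fam183b, Sec14l3 and Ccdc153 had at most 11 in any Cys52Ser library and none in WT. These markers thus had no common direction. Of 11 sperm and testis genes 2 were tested, and 1 was called lower (50.0%, beside 4.98% of all tested genes called in either direction). This was Asz1, a germ cell gene, with 0.122, 0 and 0.0574 CPM in Cys52Ser, against 4.54, 1.56 and 3.93 CPM in WT (edgeR adjusted p = 0.0262). Asz1 entered the test through its WT libraries only, which fixed its direction. Mesothelial genes, 11 tested and none called by edgeR (1 lower at an unadjusted p under 0.05, and 1 lower with DESeq2), had a median log2 fold change of -0.86, with 9 negative. In 6 of the 11 (54.5%) the Cys52Ser libraries all lay below WT, against 15.2% of all tested genes. Their summed level, to which Krt14, Slpi and Gpm6a added most, was 28.0, 89.7 and 8.08 CPM in Cys52Ser and 37.1, 54.7 and 43.8 CPM in WT, with overlap. Of 14 tested T cell genes, a cell type with no motile cilium, Il7r alone was called lower by edgeR and none higher (7.14%, beside 4.98% of all tested genes). The median log2 fold change of the 14 was 0.12. At an unadjusted p under 0.05, 2 were lower and 3 higher. The Cys52Ser libraries all lay below WT in 2 (14.3%, against 15.2%) and all above in 3 (21.4%, against 14.4%). Limma on FPKM called 3 of 13 lower, in a fit with a median over all genes of -0.24. The part of any of these cell types was not tested.

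Regulators of multiciliation and the wider primary cilium were read from the same fit, leaving out the genes already counted. Of 17 regulators in the table, 14 were tested and none was called by edgeR, with a median log2 fold change of -0.10. At an unadjusted p under 0.05 there was 1, higher, which DESeq2 also called. Cep152, a centriole duplication factor, had 5.48, 7.69 and 7.16 CPM in Cys52Ser, against 4.59, 3.31 and 3.99 CPM in WT (log2 fold change 0.77, edgeR adjusted p = 0.0935). Rfx3, an RFX factor of ciliated cells, had 130, 168 and 190 counts in Cys52Ser and 296, 190 and 185 counts in WT, overlapping groups. None of the other 20 transport genes was called by edgeR (5 lower at an unadjusted p under 0.05, 3 lower with DESeq2, 5 lower with limma on FPKM), and their median was -0.19 with 13 negative. Ift88 had 5.81, 4.88 and 6.28 CPM in Cys52Ser, against 8.61, 8.9 and 8.4 CPM in WT (log2 fold change -0.61, adjusted p = 0.0795).

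Of 9 further BBSome genes, which sort proteins into the cilium, 8 had negative fold changes. Ttc8 alone was called lower by edgeR (11.1%, beside 4.98% of all tested genes). Ttc8 had 5.37, 5.78 and 5.78 CPM in Cys52Ser, against 9.46, 9.98 and 9.06 CPM in WT (log2 fold change -0.75 ± 0.145 SE, edgeR adjusted p = 0.037). Of 21 further transition zone genes 18 were negative, with a median of -0.47 and none called by edgeR (5 lower at an unadjusted p under 0.05, 4 lower with DESeq2, 5 lower with limma on FPKM). In 9 (42.9%) the Cys52Ser libraries all lay below WT, against 15.2% of all tested genes. Nek8, a ciliary kinase, had 6.69, 4.57 and 4.06 CPM in Cys52Ser, against 10.9, 8.78 and 9.83 CPM in WT (log2 fold change -0.95, edgeR adjusted p = 0.0595).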

How the data were processed

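Poly(A) RNA of 6 livers was sequenced as paired reads from strand-marked libraries with molecular identifiers, per the labels' protocols. For every gene and library the authors deposited, per the file headers, an estimated count beside an FPKM value scaled to length and library size. The submitters' processing notes list StringTie 1.3.4d, UMI-tools, HISAT2 2.0.4, cutadapt 1.9, edgeR and DESeq2, with no roles, and the build mm9. Yet 25674 of 28524 matched gene identifiers had GRCm38 coordinates (GENCODE M21), which are given here. The counts are whole numbers, so no rounding was needed. They appear to derive from coverage, and the sources used here do not say if they are reads or fragments. They also do not say if counting used the strand, and 49 of the 138 genes share exonic bases with another gene.

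Groups came from the sample titles. Counts of all genes were tested with edgeR 4.0.16 in R 4.3.3 (filterByExpr with a minimum count of 10, TMM, robust quasi-likelihood fits, genotype alone, common biological coefficient of variation 0.358), with Benjamini-Hochberg adjustment over 18648 genes at 0.05. The cilium genes were read from that fit. The labels do not say whether mice shared litters, so p-values measure the spread between these 3 and 3 livers, and counting intervals cover counting error only. Alternatives used other scalings and filters, DESeq2 1.42.0, limma 3.58.1 on log2(FPKM + 0.5) and other pseudocounts, and left out each library. Steps were tested on simulated data. The cilium genes and all gene lists were chosen with earlier results of these data known. Genes named are Foxj1, Armc3 and Katnal2, called genes, the 10 highest by FPKM, up to 3 per role with the smallest p, genes at 0 throughout a group, and the called and leading genes of other lists. Cfap44, Dnaic1, Dnaic2, Hydin, Spag16, Fhad1, Rfx3 and the multiciliated markers were partly chosen after their values were seen.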

Additional observations from a re-analysis of the deposited data

How the results depend on the processing

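With library totals alone, 293 genes were called higher and 2724 lower, since the median of all genes moved to -0.35, and with DESeq2 1294 were higher and 1181 lower. With limma on FPKM plus 0.5, 0.1 and 1, 2567, 2623 and 2465 were called lower, with medians of all genes of -0.24, -0.32 and -0.18. Of the cilium genes, 4 were called lower with upper quartile scaling, 17 with library totals, 11 with DESeq2, and 10, 10 and 9 with limma; the numbers called higher were 0 with library totals, 4 with DESeq2 and 0 with each limma fit. Their median log2 fold change was -0.73 with library totals, -0.24 at a mean of 1 CPM or more, -0.54 with limma at 0.1 and -0.24 at 1. Leaving out 1 library gave 21 to 378 genes higher, 7 to 412 lower, 0 to 2 cilium genes lower, 0 to 1 higher and medians of -0.55 to -0.31. The cause was not tested. Over single genes and shares, 753 alternative values counted as unchanged. For tested genes this means the same direction and side of the threshold. Another 48 newly passed the threshold, 19 no longer passed it, 28 turned sign and 10 moved in size.

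Replicate numbers did not pair the samples (correlations of deviations -0.0389, 0.137 and 0.0182). With the replicate block, 303 genes and 0 cilium genes were called lower, Dcdc2a (adjusted p = 0.0569) and Dync2li1 (0.0995) being lost, and Prkar1a turned to 0.0008.

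Some signs turned, Prkaca being the gene among them whose groups did not overlap. With library totals the log2 fold changes were -0.16 for Atg5, -0.16 for Ctsh, -0.22 for Dnaaf5, -0.22 for E2f4 and -0.030 for Prkaca. With limma at pseudocounts of 0.5, 0.1 and 1 they were -0.16, -0.16 and -0.15 for Atg5, -0.15 throughout for Ctsh, -0.17, -0.20 and -0.15 for Dnaaf5, -0.21, -0.22 and -0.20 for E2f4, and -0.019, -0.020 and -0.019 for Prkaca. Leaving out 1 library gave -0.012 (without WT replicate 3) to 0.20 for Dnaaf5, -0.15 to 0.055 for Gabarap, -0.11 to 0.0076 for Prkar1a and -0.21 to 0.033 for Spef1. Prkar1a was at 0.0045 with RLE scaling.

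In the 250 bases before the start alone, the X-box stood at 7.41% of cilium gene promoters against 1.29% of all, and its arm at 26.7% against 10.4%. With minima of 5 and 20 counts, 133 and 122 of the 138 genes were detected. Depth limits the motility genes, of which 32 of 48 could be tested, with a median level of 0.06 FPKM.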
